A study of Mus musculus with 4 samples.

Results

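The genes described here encode the proteins of the mitochondrial ribosome, and they were taken by symbol: every gene whose name starts with Mrpl or Mrps followed by a number, without pseudogenes. The table held 77 such genes among 24421, of which 48 carried a large subunit name (Mrpl) and 29 a small subunit name (Mrps). All 77 had enough reads to be tested, among 14140 genes tested in all. Reads per gene were counted in bone marrow LSK cells, which lack lineage markers and carry Kit and Sca-1 and which hold stem cells and early progenitors. The cells were sorted from Zfp521-/- mice (KO, 2 libraries) and from control littermates labelled wild type (WT, 2 libraries). Zfp521 encodes a zinc finger cofactor of transcription. The labels give neither age, sex nor strain, nor the way the allele was made, and they speak of cell pools without tying a library to animals, so a p-value here reflects how far these libraries spread, part of which may be technical.

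Mitochondria hold their own ribosome, which is assembled from ribosomal RNA of the mitochondrial genome and from proteins encoded in the nucleus and imported. It translates the small set of respiratory chain subunits that the mitochondrial genome encodes. The small subunit reads the mRNA, and the large subunit joins the amino acids and passes the chain to the inner membrane. Many of its proteins descend from bacterial ribosomal proteins and keep their numbers, while others exist in mitochondria alone. In blood stem cells mitochondrial activity is known to be kept low in the resting state and to rise as cells start to divide and differentiate.

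Libraries held 22000036 and 17787425 counts in KO and 29863594 and 25813391 counts in WT. Zfp521 itself had 308 and 215 counts in KO, against 1561 and 1429 counts in WT. The defining genes of the sort were present in every library, with Kit at 697 and 702 CPM in KO and 617 and 708 CPM in WT, and Ly6a (Sca-1) at 37.3 and 67.0 CPM in KO and 47.7 and 36.9 CPM in WT. CPM is a gene's read count scaled to the size of its library, with TMM factors. Rn45s, the ribosomal RNA precursor, took 14.6% and 9.37% of counts in KO and 15.3% and 15.7% in WT. WT replicate 2 stood apart in sex-linked RNA: Xist had 606 counts there and between 160613 and 230977 in the 3 other libraries, and 4 Y-linked genes had 5606 counts there against 9 to 14. The 2 WT libraries therefore differed in this respect, and results are given with and without each of them.

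Most mitochondrial ribosomal protein genes had lower values in KO than in WT, by a modest amount each. Of the 77 genes, 65 had a negative log2 fold change (KO over WT), against 48.8% of all genes tested, and their median was -0.39, against 0.02 over all genes tested. Single genes rarely passed the test: Mrps14 and Mrpl42 fell, none rose, and 75 did not pass (edgeR quasi-likelihood test, Benjamini-Hochberg adjusted p under 0.05 over all genes tested). The share of all genes tested that were called lower was 3.01%, and called higher 3.77%, so 2 genes of 77 is close to the background (6.78% of all genes tested in either direction). Of all calls 55.6% were higher, and 69.7% with upper quartile factors. At an unadjusted p under 0.05, 20 members were lower and none higher, where 11.4% of all genes tested were lower and 13.1% higher.

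The values of the 4 libraries separated for many members. Both KO libraries lay below both WT libraries for 45 of 77 genes, where 27.6% of all genes tested did so. Both KO libraries lay above both WT libraries for none of them, where 28.8% of all genes tested did so. For the remaining 32 genes the groups overlapped. Taken alone, KO replicate 1 was below both WT libraries for 52 genes and KO replicate 2 for 60. Among the 7286 genes tested whose mean level lay within the range of the members, the median log2 fold change was -0.03.

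**Figure D1:**
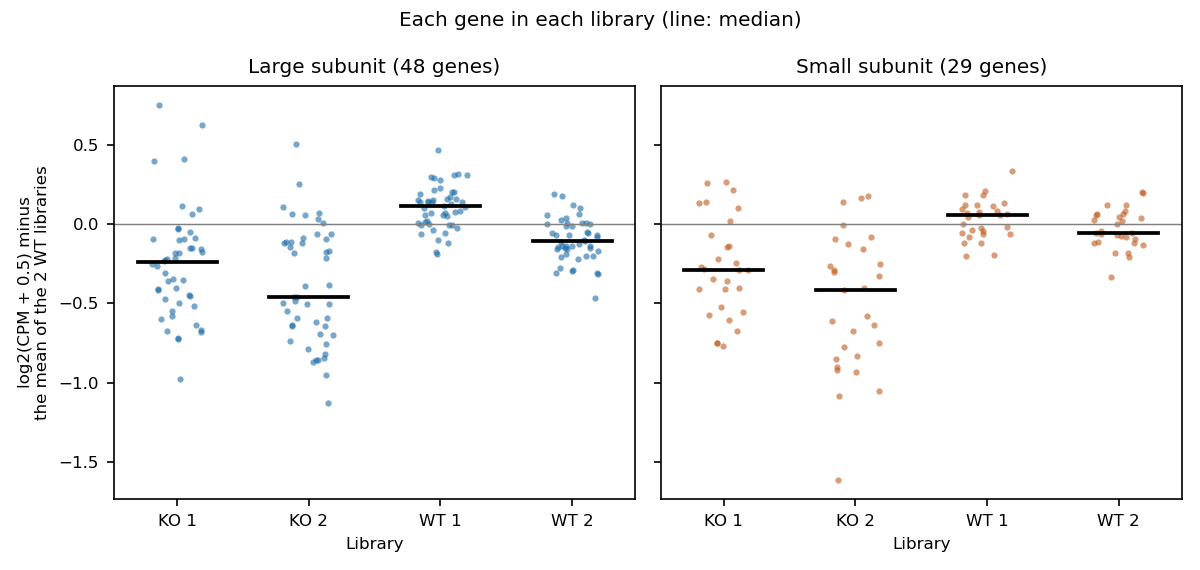
Each point is 1 gene in 1 library, as log2(CPM + 0.5) minus that gene's mean over the 2 WT libraries, for large (left) and small (right) subunit genes, and the black line is the median. The medians sit at -0.24 and -0.46 in KO and at 0.11 and -0.11 in WT for the large subunit, and at -0.29 and -0.42 in KO and at 0.05 and -0.05 in WT for the small subunit.

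The summed level of all members was 1831 and 1620 CPM in KO, against 2326 and 2092 CPM in WT. The groups did not overlap, with means of 1725 ± 150 CPM in KO and 2209 ± 165 CPM in WT (SD, n = 2 each). As a share of raw counts, before any scaling, members took 0.184% and 0.179% in KO and 0.217% and 0.201% in WT. The summed CPM of the members was 21.9% lower in KO, and their mean share of raw counts was 13.1% lower. Over all genes tested, levels summed to 994227 and 903169 CPM in KO, against 1072370 and 1038490 CPM in WT. Part of the fall in summed CPM was thus shared by all genes tested. In these bulk samples, fewer cells of a type and less RNA per cell cannot be told apart.

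Mrps14, a protein of the head of the small subunit with a bacterial counterpart, had the smallest p of all members. Its level was 43.0 and 34.8 CPM in KO, against 78.6 and 67.1 CPM in WT. The groups were well separated in CPM. Raw counts were 950 and 685 in KO and 2188 and 1668 in WT, where both KO libraries held fewer counts in all. The log2 fold change was -0.91 (SE 0.20, edgeR adjusted p = 0.0224), a 1.87-fold lower level. Mrps14 (ENSMUSG00000058267.13) covers chromosome 1 from 160195215 to 160202170 (mm10, plus strand). Without WT replicate 1 its adjusted p was 0.232, and without WT replicate 2 it was 0.0763, with log2 fold changes of -0.79 and -1.03.

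Mrpl42, a large subunit protein found in mitochondria and not in bacteria, was the other gene that passed. It stood at 35.3 and 34.9 CPM in KO and at 64.5 and 52.9 CPM in WT. The KO libraries were nearly equal and both lay under the lower WT library. The log2 fold change was -0.74 (SE 0.20, edgeR adjusted p = 0.0487), a 1.67-fold lower level. Mrpl42 (ENSMUSG00000062981.5) covers chromosome 10 from 95480805 to 95501940 (mm10, minus strand). Its call was just inside the threshold and was lost with DESeq2 size factors (edgeR adjusted p = 0.0503), with upper quartile factors (0.0706), without KO replicate 2 (0.0607) and without either WT library (0.406 for replicate 1 and 0.123 for replicate 2).

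Promoter sequences were available for 68 of the 77 genes, as RefSeq windows on GRCm38.p6 that run from 250 bases before the start of a gene to 50 after it. Of 6 motifs searched on both strands, none containing another, the ETS core CCGGAAG was in 35.3% of member windows, against 17.3% of windows of all genes tested. ETS factors, GABPA among them, are known regulators of nuclear genes for mitochondria. The NRF1 core GCGCATG was in 11.8% of member windows, against 6.95%, and the YY1 core ATGGCGG in 19.1%, against 7.93%. For these 2 factors the letters are the inner part of longer cores. The E-box CACGTG, which Myc binds, was in 5 member windows of 68, against 1059 of 10593, and the GC box GGGCGG in 34 of 68, against 61.9%. The ZNF143 core, ACTACA and TCCCAG with 2 bases between them, was added after the stretches shown here were read. It was in 4 of 68 member windows (5.88%), against 2.45%. Those 4 include the windows of Mrpl42, Mrps22 and Mrpl34, whose stretches were the ones read, so the comparison was partly fixed by that choice. The ETS core stood in 36.6% of windows of the members whose KO libraries lay below WT and in 33.3% of windows of those whose groups overlapped. Upstream stretches are printed here for 5 genes, to show the letters before the start. Those of both genes that passed come first. Then come those of 3 further genes, taken by smallest p. For these, the longest exon-free stretch before the start had to hold the ETS core and span at least 150 bases. All are read 5′ to 3′ on the gene's strand and stop before any exon, with capitals marking the motifs.
Mrps14, chr1:160194965-160195214, plus strand: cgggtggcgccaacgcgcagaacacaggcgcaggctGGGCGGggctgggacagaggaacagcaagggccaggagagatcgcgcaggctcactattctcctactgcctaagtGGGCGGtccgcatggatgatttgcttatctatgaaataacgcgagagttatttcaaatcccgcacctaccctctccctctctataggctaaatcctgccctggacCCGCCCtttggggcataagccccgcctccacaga
Mrpl42, chr10:95501950-95502199, minus strand: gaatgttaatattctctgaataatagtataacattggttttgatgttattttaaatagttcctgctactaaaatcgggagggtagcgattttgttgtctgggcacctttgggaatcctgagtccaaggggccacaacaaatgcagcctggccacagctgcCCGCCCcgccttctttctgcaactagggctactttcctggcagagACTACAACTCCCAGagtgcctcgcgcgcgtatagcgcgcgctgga
Mrps22, chr9:98601680-98601929, minus strand: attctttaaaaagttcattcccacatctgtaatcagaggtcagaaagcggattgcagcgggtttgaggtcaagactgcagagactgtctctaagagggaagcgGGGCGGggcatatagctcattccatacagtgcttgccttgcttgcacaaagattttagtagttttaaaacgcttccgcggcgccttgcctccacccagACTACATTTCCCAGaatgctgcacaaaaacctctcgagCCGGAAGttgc
Mrpl34, chr8:71464676-71464925, plus strand: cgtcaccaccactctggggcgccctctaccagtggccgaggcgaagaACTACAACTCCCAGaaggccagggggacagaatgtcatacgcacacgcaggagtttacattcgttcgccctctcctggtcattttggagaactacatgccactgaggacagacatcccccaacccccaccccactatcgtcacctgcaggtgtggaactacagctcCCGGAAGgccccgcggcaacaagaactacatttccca
Mrps18a, chr17:46110754-46110985, plus strand: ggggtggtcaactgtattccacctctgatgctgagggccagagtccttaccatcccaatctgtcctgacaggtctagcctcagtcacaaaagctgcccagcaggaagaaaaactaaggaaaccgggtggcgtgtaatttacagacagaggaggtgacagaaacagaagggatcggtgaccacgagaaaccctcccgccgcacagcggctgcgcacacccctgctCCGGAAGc

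In the stretches shown, those of Mrps14 and Mrpl42 held no ETS core, and the Mrps14 stretch held 3 GC boxes. The ETS core of Mrps22 began 11 bases before the start, that of Mrps18a 26 and that of Mrpl34 37. The ZNF143 core stood in Mrpl42, Mrps22 and Mrpl34, beginning 45, 49 and 203 bases before the start. A match is a run of letters and not a shown binding site.

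The comparison of large with small subunit genes asked whether the proteins of both subunits moved alike. The median log2 fold change was -0.35 over the 48 large subunit genes and -0.40 over the 29 small subunit genes. Negative values were found in 40 of 48 large and 25 of 29 small subunit genes. Both KO libraries were below both WT libraries for 27 large and 18 small subunit genes, where 27.6% of all genes tested did so. The quartiles ran from -0.54 to -0.14 in the large and from -0.65 to -0.09 in the small subunit.

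Large subunit genes summed to 1219 and 1108 CPM in KO, against 1556 and 1358 CPM in WT. Small subunit genes summed to 612 and 512 CPM in KO, against 770 and 734 CPM in WT. Neither sum overlapped between the groups, and the sums were 20.1% (large) and 25.3% (small) lower in KO. The summed CPM over all genes tested was lower in KO as well, as given above. The ratio of large to small was 1.99 and 2.17 in KO and 2.02 and 1.85 in WT, so the groups overlapped. On the log2 scale the ratio was 1.05 ± 0.085 in KO and 0.95 ± 0.089 in WT (SD, n = 2 each), a difference of 0.10 that is close to the spread between replicates. The ratio does not depend on library scaling. With other definitions the groups did not overlap. With subunits assigned by known structure, the log2 ratio was 1.20 and 1.27 in KO and 1.17 and 1.06 in WT. With levels per exon length it was 1.18 and 1.24 in KO and 1.14 and 0.97 in WT. As a difference of median log2 CPM it was 0.40 and 0.36 in KO and 0.30 and 0.22 in WT. The differences are given as a description, with no test.

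**Figure D2:**
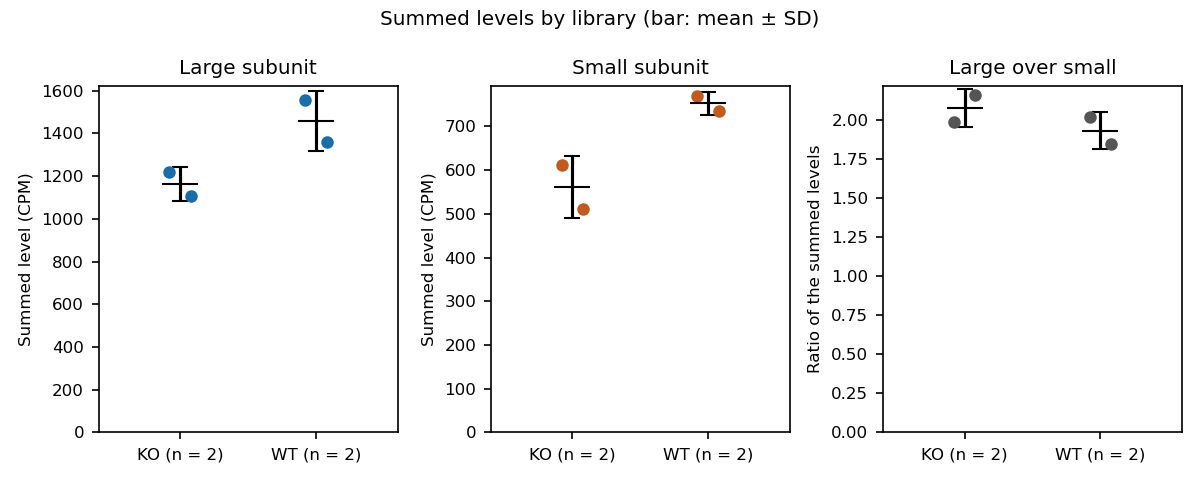
Summed CPM of large subunit genes, summed CPM of small subunit genes and their ratio in each library, KO left of WT, with bars for the mean ± SD (n = 2). Both sums are lower in the KO libraries, 1219 and 1108 CPM (large) and 612 and 512 CPM (small), while the ratios of 1.99 and 2.17 in KO overlap those of 2.02 and 1.85 in WT.

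Symbols do not always follow the structure. Mrps18a and Mrps30 are known to sit in the large subunit, and Mrps36 is now known as a part of the 2-oxoglutarate dehydrogenase complex. With these reassigned, the medians stayed at -0.35 over 50 large and -0.40 over 26 small subunit genes. Mrps36 was at 29.1 and 18.04 CPM in KO and 27.5 and 21.3 CPM in WT, and these values overlap. Mrps30 had a log2 fold change of -0.09 (SE 0.27).

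Members were also split by descent, mostly by the number in the symbol, with no test between the classes. Subunits were taken by symbol here, so Mrps18a and Mrps30 counted as small, and Mrps36 was left out. The 30 large subunit genes of bacterial families had a median of -0.32, and the 18 classed as mitochondrial -0.39. For the small subunit the medians were -0.40 over 17 genes of bacterial families and -0.41 over 11 mitochondrial ones. Both KO libraries lay below both WT libraries for 19 of 30 bacterial and 8 of 18 mitochondrial genes of the large subunit. In the small subunit they did so for 12 of 17 and 6 of 11 genes. The share over all genes tested was 27.6%.

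**Figure D3:**
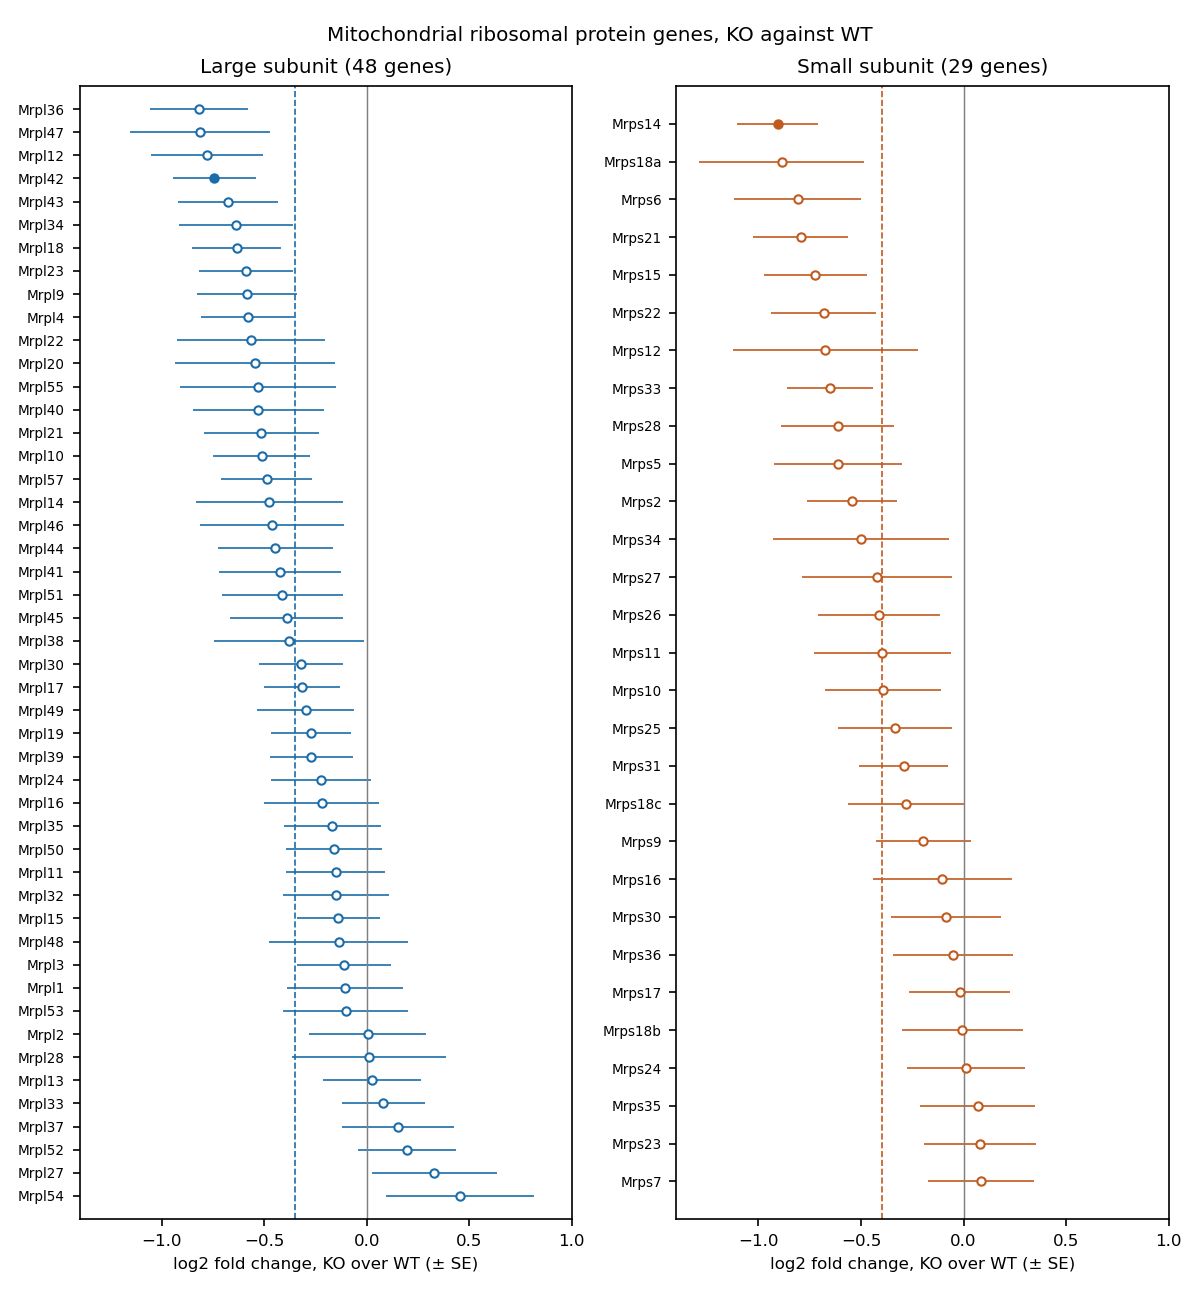
Log2 fold change of KO over WT (horizontal axis) with its standard error for each of the 48 large (left) and 29 small (right) subunit genes, sorted, with filled points for genes past the threshold and a dashed line at the median. Mrpl42 at -0.74 and Mrps14 at -0.91 are the filled points, and estimates run from -0.82 (Mrpl36) to 0.45 (Mrpl54) in the large subunit and from -0.91 to 0.08 in the small subunit.

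Among large subunit genes the smallest p after Mrpl42 was that of Mrpl36, a short protein of the bacterial L36 family. Mrpl36 stood at 22.1 and 18.04 CPM in KO, against 36.6 and 34.1 CPM in WT. The groups did not overlap, and the log2 fold change was -0.82 (SE 0.24, edgeR adjusted p = 0.0638). Its annotation overlaps Ndufs6 on the other strand by 30 bases, and Ndufs6 had a log2 fold change of -0.21 (SE 0.25).

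Mrpl12 and Mrpl10 form the stalk that binds translation factors, and Mrpl12 is also known to bind the mitochondrial RNA polymerase. Mrpl12 was at 13.6 and 12.1 CPM in KO, against 22.0 and 22.1 CPM in WT (log2 fold change -0.78, SE 0.27, edgeR adjusted p = 0.105). Mrpl10 was at 22.6 and 22.4 CPM in KO, against 34.3 and 29.9 CPM in WT. The libraries of each group were close together for both genes, and neither gene passed. Mrpl11, at the stalk base, had a log2 fold change of -0.15.

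From the rim and wall of the tunnel through which the new chain leaves, 7 members were picked. They were Mrpl4, Mrpl17, Mrpl22, Mrpl23, Mrpl24, Mrpl45 and Mrpl47. None passed. In all 7 both KO libraries lay below both WT libraries, as for 45 of all 77 members. The log2 fold changes of the 7 ran from -0.81 (Mrpl47) to -0.22 (Mrpl24). Mrpl4 was at 47.9 and 34.3 CPM in KO, against 53.4 and 69.6 CPM in WT. Mrpl23 was at 24.1 and 22.2 CPM in KO, against 36.7 and 32.8 CPM in WT. Mrpl47 was at 6.19 and 8.23 CPM in KO, against 12.4 and 12.9 CPM in WT. Mrpl47 overlaps Ndufb5 and Actl6a on the other strand, whose log2 fold changes were -0.82 and -0.57, and the strand setting of the counting is not given in the sources used here. Mrpl45, which anchors the ribosome to the inner membrane, had a log2 fold change of -0.39 (SE 0.27).

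Around the peptidyl transferase centre, where the peptide bond is made, values differed less between the groups. Of Mrpl2, Mrpl3, Mrpl16 and Mrpl27, 2 had a negative log2 fold change, and the range was -0.22 to 0.33. Mrpl2 had a log2 fold change of 0.00 (SE 0.28). Mrpl27 was at 25.1 and 15.4 CPM in KO and 15.7 and 16.6 CPM in WT. Its KO values lay on both sides of WT, and the log2 fold change of 0.33 turned to -0.07 without KO replicate 1. These structural groups were picked from known structures with the values in view and were not tested.

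From the central protuberance 5 members were picked, Mrpl18, Mrpl38, Mrpl40, Mrpl46 and Mrpl48. All 5 estimates were negative, as were those of 65 of all 77 members. Both KO libraries lay below both WT libraries for 2 of the 5. Mrpl18, of the family that binds 5S RNA in bacteria, was at 57.5 and 42.0 CPM in KO, against 88.5 and 65.9 CPM in WT (log2 fold change -0.63, SE 0.22, edgeR adjusted p = 0.0993). The groups were apart, but each varied widely. Mrpl18 overlaps Tcp1 on the other strand by 645 bases, and Tcp1, a chaperonin gene, fell (log2 fold change -0.56, edgeR adjusted p = 0.0384). Mrpl48 was at 10.7 and 20.1 CPM in KO and 18.6 and 15.2 CPM in WT, with the KO values on both sides of WT.

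Other large subunit genes with a small p were Mrpl43, Mrpl9, Mrpl34 and Mrpl57, and none passed. Mrpl43 was at 19.3 and 19.7 CPM in KO, against 28.5 and 33.8 CPM in WT. Mrpl9 was at 20.7 and 21.2 CPM in KO, against 34.8 and 27.9 CPM in WT. Mrpl34 was at 39.9 and 21.6 CPM in KO, against 52.5 and 43.3 CPM in WT. For Mrpl34 the KO libraries differed from each other more than the WT libraries did. Mrpl57 was at 26.3 and 25.4 CPM in KO, against 37.7 and 34.8 CPM in WT.

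Among small subunit genes Mrps21, of the bacterial S21 family, had the smallest p after Mrps14. It stood at 22.9 and 19.5 CPM in KO, against 36.7 and 36.8 CPM in WT (log2 fold change -0.80, SE 0.23, edgeR adjusted p = 0.0635). The WT libraries were nearly equal, and the groups did not overlap. Mrps33, a mitochondrial protein, was at 53.7 and 37.2 CPM in KO, against 68.3 and 74.6 CPM in WT (log2 fold change -0.65, SE 0.21, edgeR adjusted p = 0.0848). Mrps21, Mrps33 and Mrpl36 each passed in the DESeq2 Wald test, with adjusted p of 0.0181, 0.0412 and 0.0187. That test called 5.7% of all genes tested lower, and 5 of the 77 members.

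Mrps15, Mrps22, Mrps6, Mrps2 and Mrps28 did not pass, and for each of them both KO libraries lay below both WT libraries. Mrps15 was at 22.4 and 16.8 CPM in KO, against 34.2 and 30.5 CPM in WT. Mrps22, in which mutations are known to cause human mitochondrial disease, was at 15.7 and 17.8 CPM in KO, against 25.3 and 28.4 CPM in WT. Mrps6 was at 8.68 and 8.64 CPM in KO, against 14.9 and 15.5 CPM in WT, and it overlaps Slc5a3 on the same strand, whose log2 fold change was 0.18 (SE 0.21). Mrps2 was at 52.9 and 35.6 CPM in KO, against 68.9 and 60.4 CPM in WT. Mrps28 was at 14.0 and 13.6 CPM in KO, against 23.0 and 19.3 CPM in WT.

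From the small subunit head 5 genes were picked, which need not be all of its members. Of these 5, Mrps14 fell, Mrps10 and Mrps9 had estimates of -0.39 and -0.20, and Mrps7 and Mrps24 had estimates of 0.08 and 0.01. Mrps12 and Mrps5, which line the path of the mRNA and the decoding site, had estimates of -0.67 (SE 0.45) and -0.61 (SE 0.31), with both KO libraries below both WT libraries.

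The bacterial S18 protein has 3 relatives in mitochondria, and their values were unlike. Mrps18a was at 13.3 and 5.28 CPM in KO, against 16.7 and 17.7 CPM in WT (log2 fold change -0.89, SE 0.40, edgeR adjusted p = 0.202). Mrps18b was at 16.0 and 12.9 CPM in KO and 15.2 and 13.8 CPM in WT, and Mrps18c at 13.8 and 13.9 CPM in KO and 17.5 and 16.2 CPM in WT. The Mrps18a estimate leaned on KO replicate 2, where it was less than the level in any other library. None of the 3 passed, and the differences among them were not tested. Mrps18a overlaps Rsph9 on the other strand, which had a log2 fold change of -1.32 (SE 0.67).

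The 3 largest positive estimates belonged to Mrpl54 (0.45, SE 0.36), Mrpl27 and Mrpl52 (0.20, SE 0.24), and none passed. Mrpl54 was at 15.1 and 8.99 CPM in KO and 8.19 and 9.46 CPM in WT. Mrpl52 was at 40.1 and 28.7 CPM in KO and 30.1 and 29.99 CPM in WT. In all 3 genes KO replicate 1 was the highest library and KO replicate 2 lay near or within the WT range. The lowest edgeR adjusted p of any member with a positive estimate was 0.468.

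How far the members differed among themselves was close to the error of a single gene. The SD of log2 fold changes was 0.30 over the 77 genes, and the median standard error of a gene was 0.27. Between -0.25 and 0.25 lay 27 genes, and 28 lay below -0.5. The log2 fold change had a Spearman correlation across members of -0.25 with the WT level per length and of 0.14 with exon length. These are descriptions over genes that share the same 4 libraries.

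Levels between genes were compared per length, as RPKM (CPM per kilobase of annotated protein-coding exons). The range over members was 2.14 to 99.6 RPKM in KO and 3.60 to 94.1 RPKM in WT. Mrpl33 had the highest level in WT, with 99.6 ± 2.20 RPKM in KO and 94.1 ± 15.5 RPKM in WT. It was followed by Mrpl42, with 51.7 ± 0.476 RPKM in KO and 86.5 ± 12.02 RPKM in WT, and by Mrpl34, with 50.7 ± 21.4 RPKM in KO and 78.9 ± 10.7 RPKM in WT (SD, n = 2 each). In WT these neighbours do not differ beyond their spread. The lowest in WT were Mrpl48, with 3.28 ± 1.42 RPKM in KO and 3.60 ± 0.511 RPKM in WT, Mrps35, with 3.93 ± 0.270 RPKM in KO and 3.75 ± 0.173 RPKM in WT, and Mrpl47, with 2.14 ± 0.428 RPKM in KO and 3.77 ± 0.104 RPKM in WT. Members kept much of their order, with a Spearman correlation of 0.95 across members between KO and WT. The transcript form these cells use is not known, so a long annotated exon lowers a gene's RPKM.

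**Figure D4:**
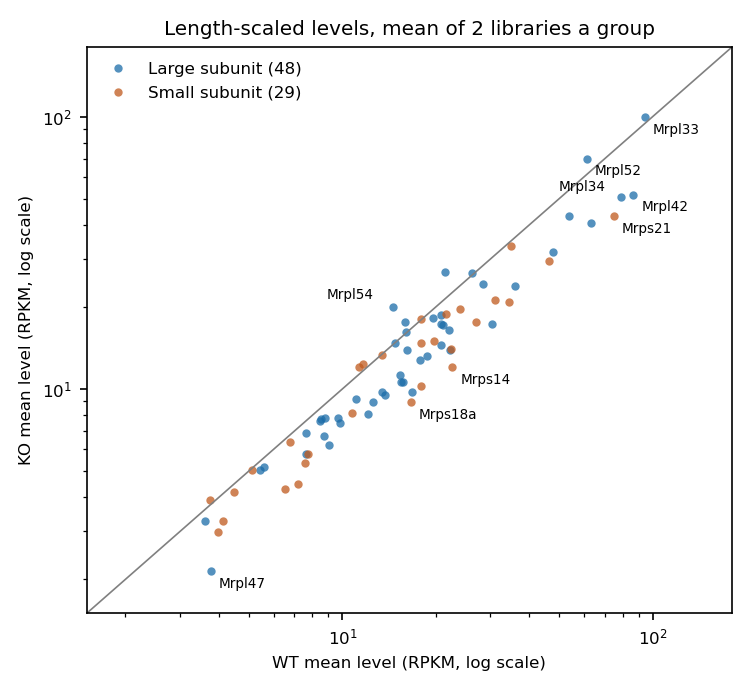
Mean level per length (RPKM, both axes logarithmic) of each large and small subunit gene in WT (horizontal) and KO (vertical), with the grey line where both are equal. Most points lie under the line, with Mrpl42 at 51.7 RPKM in KO and 86.5 RPKM in WT, while Mrpl33 at 99.6 RPKM in KO and 94.1 RPKM in WT lies on it within its spread.

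Other genes of mitochondrial translation were set beside the members, and whether they differ from them was not tested. Of 6 mitoribosomal proteins with other symbols (Dap3, Ptcd3, Chchd1, Aurkaip1, Gadd45gip1 and Ict1) none passed, 5 had a negative estimate, both KO libraries lay below both WT libraries for 3, and the median was -0.19. Dap3, a small subunit protein also known from cell death, was at 38.7 and 51.3 CPM in KO and 46.5 and 46.3 CPM in WT. No gene passed among 14 translation factors (median 0.06), 28 assembly factors of the mitoribosome (median -0.03), 20 mitochondrial aminoacyl-tRNA synthetases (median -0.16) or 14 genes of mitochondrial DNA upkeep and transcription (median 0.13). At an unadjusted p under 0.05 these lists, in the same order after the 6 proteins, had 2, 0, 0 and 3 higher genes. They had 0, 1, 3 and 1 lower genes, and the 6 proteins 0 higher and 1 lower. The 3 lower synthetases include Lars2, whose level was far above all others of its list and whose groups overlapped. Lars2 was at 19662.2 and 10566.5 CPM in KO and 24431.6 and 19164.9 CPM in WT.

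Of 16 regulators of mitochondrial biogenesis, 12 had a negative estimate and 1, Mycl, rose. Mycl, a relative of Myc, was at 4.97 and 3.30 CPM in KO, against 0.718 and 0.443 CPM in WT (log2 fold change 2.82, SE 0.71, edgeR adjusted p = 0.0387). Myc, a known activator of ribosome genes, was at 523 and 220 CPM in KO and 520 and 428 CPM in WT, with KO replicate 2 lowest. Gabpa, the ETS factor, was at 183 and 199 CPM in KO and 227 and 219 CPM in WT, and Nrf1 at 68.1 and 53.2 CPM in KO and 75.1 and 66.7 CPM in WT. Neither passed. Both KO libraries lay below both WT libraries for Gabpa, and the groups overlapped for Nrf1.

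Lists of like size were set beside the members. Of 77 cytosolic ribosomal protein genes, 62 had a negative estimate, the median was -0.18, and 3 fell: Rpl7a (-0.76), Rpl28 (-0.60) and Rpl15 (-0.53). Of 87 tested nuclear genes of the respiratory chain and ATP synthase, which work beside the products of the mitochondrial ribosome, 79 had a negative estimate, the median was -0.35, and 4 fell: Cox5a (-0.92), Atp5g2 (-0.84), Ndufa4 (-0.80) and Atp5b (-0.76). None rose in either list. Both KO libraries lay below both WT libraries for 44 of 77 cytosolic and 54 of 87 respiratory chain genes, against 45 of 77 members. The share over all genes tested was 27.6%. At an unadjusted p under 0.05 in edgeR, 16 cytosolic and 32 respiratory chain genes were lower and none higher, against 20 members lower. Whether these lists differ from the members was not tested.

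**Figure D5:**
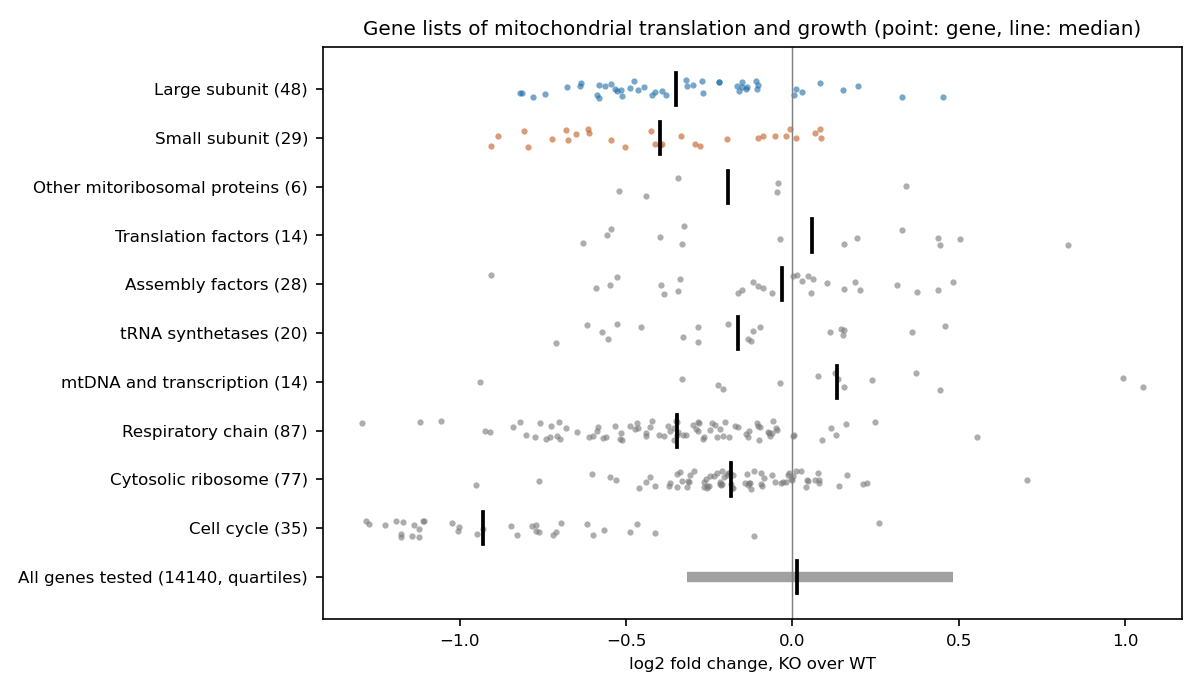
Log2 fold change of KO over WT for each gene of 10 lists (points, with the number of genes in brackets), the list median (black line) and, at the bottom, the quartiles and median of all 14140 genes tested. The large and small subunit medians of -0.35 and -0.40 lie near that of the respiratory chain (-0.35), below that of all genes (0.02) and above that of the cell cycle list (-0.93).

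Other gene groups moved in the same libraries. Of 35 cell cycle genes 26 fell and none rose, with a median of -0.93 and a summed level of 4382 and 4160 CPM in KO, against 7484 and 7388 CPM in WT. Of 11 tested dendritic cell markers 7 rose, with sums of 1074 and 885 CPM in KO and 167 and 159 CPM in WT. Of 10 tested mast cell and basophil markers 7 rose, with sums of 228 and 131 CPM in KO and 23.7 and 19.2 CPM in WT, and Mcpt1 was at 0 in all libraries. Of 12 neutrophil markers 7 rose, with sums of 1194 and 924 CPM in KO and 442 and 628 CPM in WT. Of 13 monocyte and macrophage markers 3 rose, with sums of 680 and 597 CPM in KO and 444 and 480 CPM in WT.

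Of 8 tested erythroblast markers 2 rose, with sums of 763 and 393 CPM in KO and 86.5 and 374 CPM in WT, and Hba-a1, Hbb-bt and Hbb-b2 were listed at 0 throughout. Of 14 B lineage genes 12 fell, with sums of 152 and 118 CPM in KO and 590 and 698 CPM in WT. No T or NK cell marker passed in edgeR, with 7 tested, 1 higher and 1 lower at an unadjusted p under 0.05, and sums of 102 and 102 CPM in KO and 119 and 122 CPM in WT. Of 16 LSK and stem cell genes only Cd34 passed and was lower (-0.61). The part of these groups, of sequencing depth and of Rn45s in the values of the members was not tested.

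The libraries weighed unequally on the results. Without WT replicate 1, 59 members had a negative estimate and the medians were -0.18 (large) and -0.33 (small). Without WT replicate 2, 67 were negative and the medians were -0.44 and -0.47. Without KO replicate 1, 67 were negative and the medians were -0.49 and -0.45. Without KO replicate 2, 63 were negative and the medians were -0.27 and -0.31. A negative median for both subunits was found with each library left out in turn. Each of these fits left 1 library in a group, so the number of members passing in them is not read as a result about the members.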

How the data were processed

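RNA from sorted LSK cells (20 ng per library, NuGEN Ovation Ultralow, 76 cycles on a NextSeq 500, per the labels' protocols) was sequenced in 2 KO and 2 WT libraries. The authors deposited raw read counts per gene symbol. The submitters' processing notes name the build mm10 and, as tools, HTSeq 0.8.0, TopHat2 2.1.1, Picard 2.9.4 and SAMtools 1.5. The sources used here do not state the annotation, the strand setting or the handling of duplicates, so reads of genes that overlap on opposite strands cannot be told apart, and 41 members overlap an annotated gene.

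Counts were tested with edgeR 4.0.16 in R 4.3.3 (TMM, filterByExpr with a minimum count of 10 and a minimum total of 15, quasi-likelihood, KO against WT without covariates), with Benjamini-Hochberg adjustment over the 14140 genes tested and a threshold of 0.05. The standard error is the log2 fold change divided by the square root of F. Positions and exon lengths came from GENCODE vM21 (basic set), in which 77 members matched by symbol. Alternatives were other scaling factors, DESeq2 1.42.0, other filters, Rn45s left out, robust dispersion, a replicate block, each library left out, and other definitions of the subunits. The edgeR step was tested on simulated data. Members and gene lists were chosen with earlier results of these data known. Named members are those past the threshold, then those with the smallest p up to 12 large and 8 small subunit genes, the 3 highest and 3 lowest in WT per length, the 3 largest positive estimates, the S18 relatives and Mrps36, and genes of the other lists that passed. Marker and cell cycle genes that passed are given as counts, and a few further members were named for their place in the ribosome, after their values were seen. A floor of 3 counts was 0.136 and 0.169 CPM in KO and 0.100 and 0.116 CPM in WT, for counting error only. Members had at least 69 counts in every library.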

Additional observations from a re-analysis of the deposited data

How the results depend on the processing

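No member rose under any alternative run, and both subunit medians were negative under all of them. In the paired fit with the replicate number as a block, 12 members were lower (6 large, 6 small). In all, 1312 genes were then higher and 1314 lower, and those lower were 9.29% of all genes tested. The labels do not say that a number marks a shared batch, and replicate 1 deviations correlated at 0.095 across genes between KO and WT, so the numbers were not taken to pair the samples. Over all genes, 533 were higher and 425 lower. The DESeq2 Wald test gave 858 higher and 816 lower (5.7% of all genes tested), with 5 members lower (2 large, 3 small). No filter gave 1056 higher and 987 lower (5.59% of all genes tested), with 7 members lower (4 large, 3 small). In edgeR, upper quartile factors and likewise DESeq2 size factors left 1 member lower and 0 large. The shares of all genes tested that were lower were then 2.04% and 2.89%. Upper quartile factors moved the share of higher among all calls to 69.7%, against 55.6%. Leaving out 1 library gave 160 to 997 genes higher and 95 to 1161 lower, 0 to 12 members lower, 0 to 5 large and 0 to 7 small subunit genes lower, medians from -0.49 to -0.18 (large) and from -0.47 to -0.31 (small), and a difference in log2 large to small ratio from 0.04 to 0.17. Some estimates changed sign, and not all of these were near 0 (Mrpl27 stood at 0.33 in the main fit). Mrps18b log2 fold changes went to 0.0755 with upper quartile factors and 0.0512 with the stricter filter, and those of Mrps36 to 0.0302 and 0.0046. With each library left out in turn, the log2 fold change ran from -0.0935 to 0.256 for Mrpl33, from -0.674 to 0.243 for Mrpl48, from -0.0724 to 0.629 for Mrpl27, from -0.073 to 0.408 for Mrpl52, from -0.0114 to 0.128 for Mrps35, from -0.175 to 0.13 for Mrps18b and from -0.445 to 0.242 for Mrps36. The cause of these changes was not tested.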
